A study of Macaca mulatta with 80 samples.

Results

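Gene expression in the dentate gyrus (DG) of adult rhesus monkeys (Macaca mulatta) was compared with that in their entorhinal cortex (EC). The comparison holds 8 of the 80 arrays of the study: 4 of adult DG and 4 of adult EC, chosen by the region and age in their labels and paired by the number, 1 to 4, in their titles. The study took 5 regions of the hippocampal formation from each of 16 male monkeys, 4 at each of 4 ages: 1 day, 6 months, 1 year, and 6 to 12 years (the adults), with no treatment or genotype named in the labels. DG was cut at the mid-rostrocaudal level of the hippocampal body and EC from its intermediate division. Both pieces held all layers, and only the middle part across each region was taken. Each array therefore reads a mixture of neurons, glia and vessels, and fewer cells of a type cannot be told apart from less RNA per cell. Total RNA was labelled in 2 amplification cycles and read on Affymetrix arrays whose probes were designed on human genes, so a weak signal can also come from a mismatch between a human probe and the monkey transcript. Values are log2 signals, where a difference of 1 is 2-fold, and levels are compared between regions and never between genes.

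The DG is a simple layered cortex filled by granule cells, small glutamatergic neurons whose mossy fibres excite hilar mossy cells and CA3 pyramidal cells. The EC is a multilayered cortex. Its superficial neurons send the perforant path to the DG and hippocampus, and its deep neurons return hippocampal output to the neocortex. The DG is also known for a zone under the granule layer that goes on making neurons after birth.

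The 3′ to 5′ difference of the GAPDH control probe sets, which grows as RNA is degraded or amplification shortens it, was 1.28 to 1.43 (log2) in DG and 1.29 to 1.69 in EC. The mean pair difference was -0.11, with a two-sided exact p of 0.25, where 4 pairs can give no less than 0.125. The same measure for actin was 3.61 to 3.70 in DG and 3.93 to 4.10 in EC, lower in DG in all 4 pairs by a mean of 0.38 (exact p = 0.125). The part of this gap in the gene differences was not tested, beyond a fit with the GAPDH difference as a covariate that is given with the counts. Array correlations across genes were 0.977 to 0.993 within DG and 0.989 to 0.991 within EC, against 0.953 to 0.980 between them.

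Of 19774 genes, 4992 differed between adult DG and EC at an adjusted p under 0.05 (limma on the 4 pair differences, Benjamini-Hochberg over all genes), which is 25.2% of the genes tested. Genes that passed this threshold are called here. Of them, 2760 were higher in DG (14% of all genes) and 2232 lower (11.3%), so that 55.3% of calls were higher in DG. The large differences ran mostly the other way. At least 2-fold, 92 called genes were higher in DG and 268 lower, and at least 4-fold, 7 were higher and 16 lower. The sign was the same in all 4 pairs for 4712 called genes, and the groups of arrays did not overlap for 3803. These counts were not made over all genes, so they describe the calls and add no support to them. The share of calls that were higher fell to 51.6% on the values as deposited and to 51.2% with each array centred on its median, while the median of all differences was 0.03, 0.03 and 0.02 on the 3 scales. With the GAPDH difference as a covariate, which leaves 2 residual degrees of freedom in place of 3, 2290 genes were called, 2229 of them in the same direction as before. Without the arrays of animal 2 the count was 3030, and without those of animal 3 it was 2683.

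**Figure D1:**
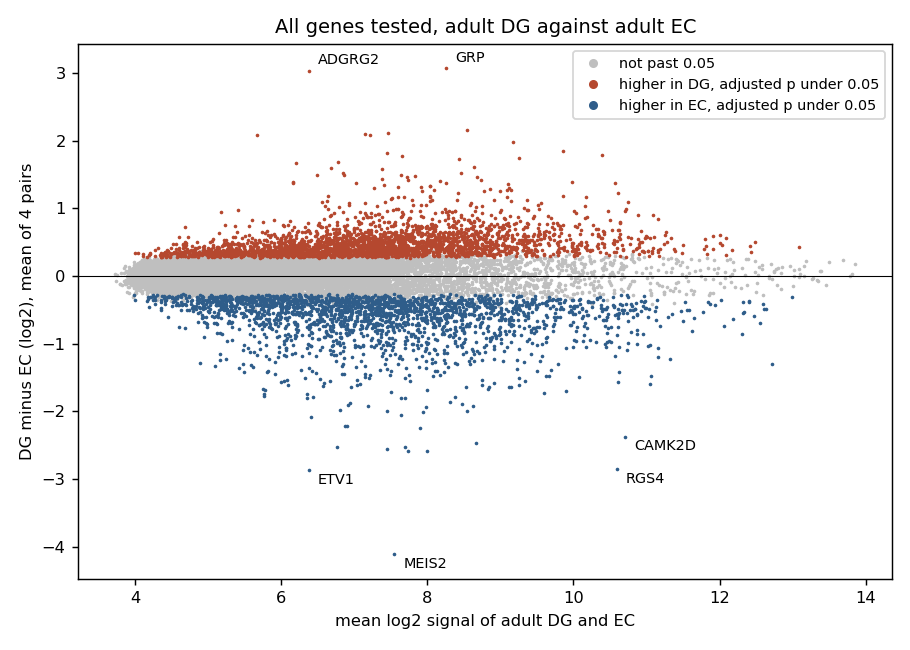
Difference DG minus EC (log2, mean of 4 pairs) against the mean log2 signal of adult DG and EC, 1 point per gene for 19774 genes; red points were called higher and blue points lower in DG. The lower side reaches farther from 0 than the upper side: 268 called genes were at least 2-fold lower and 92 at least 2-fold higher.

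Among the genes highest in DG relative to EC was GRP (probe set 206326_at), the gene of gastrin-releasing peptide, a bombesin-like neuropeptide. It measured 9.50, 9.90, 9.89 and 9.88 in the DG arrays of animals 1 to 4 and 6.66, 6.51, 6.74 and 6.98 in their EC arrays. Every DG array was above every EC array, and the difference of 3.07 ± 0.11 (SE, n = 4 pairs) was 8.4-fold (adjusted p = 1.36e-09). ADGRG2 (206002_at), an adhesion-type G protein-coupled receptor, measured 8.12, 7.91, 7.73 and 7.82 in DG and 4.60, 4.95, 4.70 and 5.19 in EC. Its 4 EC values lie below the median of gene means (5.98), so the gene was close to the low end of the scale there, and the groups did not overlap (difference 3.04 ± 0.13, adjusted p = 3.83e-09). CEBPD, a basic leucine zipper transcription factor, followed the same pattern with 7.87, 8.37, 8.48 and 8.29 in DG and 6.24, 6.10, 6.10 and 6.22 in EC, a difference of 2.09 ± 0.12.

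The other genes at the top for DG were of several kinds. ZBTB20, a zinc-finger repressor needed for hippocampal neurons to form, was at 10.09, 10.01, 10.14 and 10.25 in DG and 8.05, 8.47, 8.54 and 8.48 in EC. Its 11 further probe sets also had a higher mean in DG. PLEKHA2, a phosphoinositide-binding adaptor, was at 11.20 to 11.37 in DG and 9.15 to 9.83 in EC. SHISA6, an auxiliary subunit of AMPA receptors, was at 9.96 to 10.49 against 7.77 to 8.69, but 1 of its 2 further probe sets, both with low signal, pointed the other way. CCDC80, a secreted matrix protein, showed the same split, with 8.20 ± 0.17 (SD, n = 4) in DG and 6.10 ± 0.27 in EC on its brightest probe set. The remaining genes were VWA5A (difference 2.16), SLN, the sarcolipin gene, whose product restrains the calcium pump of the endoplasmic reticulum (2.11), MAB21L2 (2.08), the antiproliferative gene BTG1 (1.84), LRRC10B (1.82), STXBP6, whose product amisyn binds SNARE proteins (1.78), and ZFPM2, a GATA cofactor (1.72). SLN varied most, from 7.62 to 9.55 in DG, yet its lowest DG array stood above its highest EC array at 6.70.

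The largest measured difference among the genes named ran the other way and belonged to MEIS2 (207480_s_at), a TALE-class homeobox transcription factor. Its level was 5.42, 5.63, 5.41 and 5.49 in DG and 9.55, 9.71, 9.54 and 9.63 in EC. All 4 DG values lie below the median of gene means (5.98), near the low end of the scale. The measured means were 17.4-fold apart, with SDs of 0.10 and 0.08 (difference -4.12 ± 0.09 SE, adjusted p = 5.05e-12). ETV1, an ETS transcription factor known from deep-layer cortical neurons, measured 5.52, 4.54, 5.10 and 4.60 in DG and 8.06, 7.52, 7.97 and 7.70 in EC. RGS4, which shortens signalling through G proteins of the Gi and Gq classes, measured 9.44, 9.13, 9.60 and 8.49 in DG and 12.10, 11.90, 12.03 and 12.06 in EC. Neither gene overlapped between regions, with differences of -2.87 ± 0.11 and -2.86 ± 0.15, and both further probe sets of RGS4 were called in the same direction. The 4 further probe sets of ETV1, all at lower signal in EC, differed by -0.31 to -0.02, and 1 of them was called.

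Kinase genes were also among the large differences toward EC. CAMK2D, the delta chain of calcium/calmodulin-dependent kinase II, measured 9.56, 9.58, 9.58 and 9.36 in DG and 11.97, 11.85, 11.83 and 11.94 in EC, a 5.20-fold difference, and all 4 further probe sets pointed the same way. The alpha chain CAMK2A went the opposite way at 10.20, 10.26, 10.38 and 10.70 in DG and 9.51, 9.59, 9.66 and 9.83 in EC (difference 0.74 ± 0.10, adjusted p = 8.90e-05). Both chains are subunits of one enzyme, and they differed between regions in opposite directions in all 4 pairs. CDC42BPA, a kinase that binds CDC42, was lower in DG by 2.24. EFNB2, the membrane ligand ephrin-B2, was at 7.20 to 7.67 in DG and 9.71 to 10.02 in EC. The others were PHACTR2, a regulator of protein phosphatase 1 and actin (-2.59), SERPINI1, the protease inhibitor neuroserpin (-2.59), SYTL2, a Rab27 effector (-2.55), UTRN, utrophin (-2.53), TOX3 (-2.52), BRINP3 (-2.22), DPP10, an auxiliary subunit of Kv4 channels (-2.22), and SORCS1, a sorting receptor (-2.08). Not all further probe sets of these genes showed the difference. The 2 of UTRN and the 1 of SORCS1, all near 5 on the log2 scale, were not called when fitted on their own, nor were the 4 of CDC42BPA (-0.29 to -0.06) and 1 of 3 for TOX3.

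**Figure D2:**
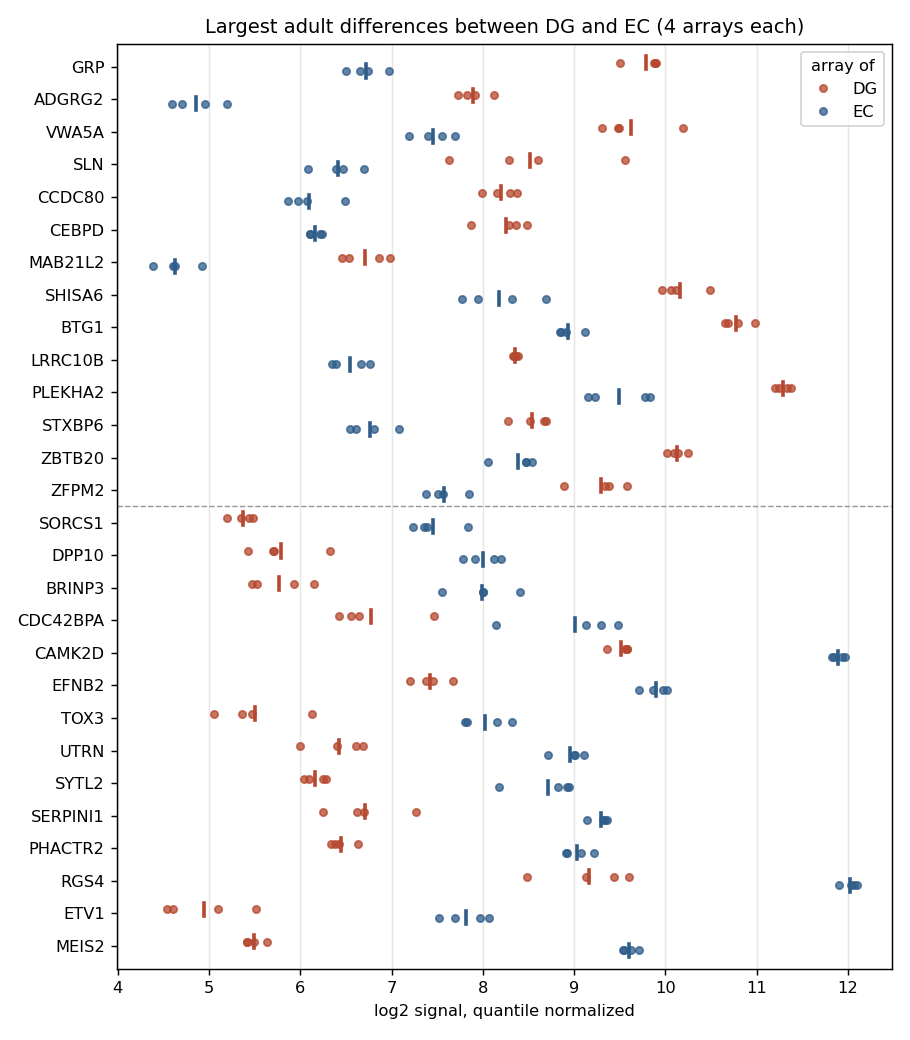
Log2 signal of the 14 genes with the largest differences toward DG (above the dashed line) and the 14 toward EC (below it), chosen by the rule for named genes; each point is 1 array (4 per region) and each vertical bar a group mean. In all 28 genes the DG and EC points do not overlap, with MEIS2 at 5.49 against 9.61 on average.

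The labels of both regions were set against markers. For each list counted in adults, the shares to compare with are 14% of all genes higher in DG and 11.3% lower. Of 14 granule cell markers measured, 4 were called higher in DG and 2 lower, 28.6% and 14.3% of the list, and the list's median difference was 0.19 against 0.03 over all genes. STXBP6 stood at 8.69, 8.52, 8.67 and 8.28 in DG and 6.54, 6.60, 6.81 and 7.08 in EC. DOCK10, a guanine nucleotide exchange factor, stood at 7.08, 6.65, 7.04 and 6.63 against 4.94, 5.64, 5.53 and 5.75, and SEMA5A, a semaphorin, at 7.81 to 8.46 against 6.99 to 7.16. These 3 markers separated the regions without overlap; LCT, the lactase gene, was called at 0.33 near the low end of the scale, and not without animal 2 or 3. The 2 called lower were GLIS3 (-0.54) and DSP (-0.31). GLIS3 was not called without animal 2 or 4, and DSP not without animal 2, 3 or 4.

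The best-known granule cell markers did not stand out on the probe sets used. PROX1, the homeobox gene that keeps granule cell identity, was at 7.20, 7.01, 7.17 and 7.48 in DG and 6.92, 7.10, 6.87 and 7.15 in EC (difference 0.21, adjusted p = 0.168). The groups overlapped, and the same probe set read 7.18 to 7.22 on average in subiculum, CA3 and CA1. PROX1 has 3 dimmer probe sets, and when every probe set was fitted on its own, 228656_at was higher in DG by 0.67 (adjusted p = 0.00103) and 229376_at by 0.45 (adjusted p = 0.0115), while 207401_at differed by 0.02. With the mean of its probe sets the gene was called, at 0.34. CALB1, the calcium buffer calbindin, measured 9.67, 9.11, 9.28 and 8.54 in DG and 8.55, 8.62, 8.95 and 8.84 in EC. The DG array of animal 4 was the lowest of the DG arrays and below all 4 EC arrays; the difference was 0.41 (adjusted p = 0.0860), and 0.65 (adjusted p = 0.000375) without animal 4. Of 7 mossy and hilar cell markers 1 was called, NMB (neuromedin B, higher in DG by 0.59). That is 14.3% of the list, near the 14% of all genes called higher.

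Markers of layered cortex were called lower in DG more often than higher. Of 13 upper-layer markers 6 were called lower and 2 higher, and of 18 deep-layer markers 7 were called lower and 2 higher, against 11.3% lower over all genes. CUX2, a homeobox gene of upper-layer neurons, was at 5.96, 6.01, 6.04 and 5.96 in DG and 7.89, 7.90, 7.68 and 8.03 in EC. RELN, which encodes the secreted protein reelin, measured 8.68, 8.22, 8.16 and 8.14 in DG and 9.60, 9.31, 9.45 and 9.75 in EC. Both genes separated the groups, by -1.88 ± 0.10 and -1.23 ± 0.12, and a dim further probe set of CUX2 did not differ (0.11, not called). LAMP5, an upper-layer marker called higher in DG (0.63), overlapped between regions and was not called without animal 3. From the deep-layer list, CCN2, a marker of the deepest cortical layer, was lower in DG by 1.42, RXFP1, a relaxin receptor, by 1.23 and TLE4, a corepressor, by 0.75, next to ETV1. TLE4 was not called with the mean of its probe sets (-0.21). FEZF2, a determinant of subcortically projecting neurons, went against the list at 7.47 to 7.69 in DG and 6.19 to 7.02 in EC.

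Transcription factors of forebrain glutamatergic neurons split. Of 12 measured, 4 were called lower in DG and 3 higher. MEF2C, an activity-regulated factor, measured 10.42, 10.07, 10.36 and 10.14 in DG and 11.84, 11.62, 11.99 and 11.91 in EC, and FOXP1 was lower by 0.87. The 3 that were higher in DG are basic helix-loop-helix factors. BHLHE22 measured 10.88, 10.45, 11.01 and 10.35 in DG and 9.24, 9.88, 9.55 and 9.87 in EC, NEUROD6 was higher by 0.94 and NEUROD2 by 0.73. None of these 3 overlapped between regions.

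**Figure D3:**
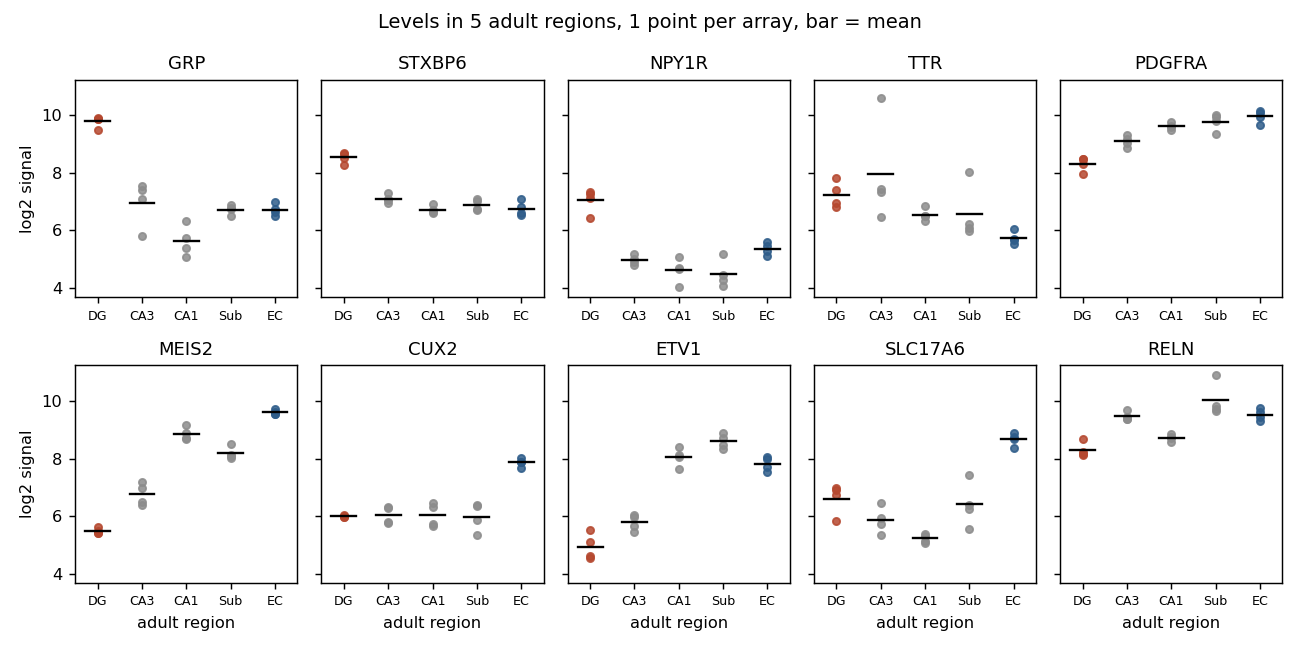
Log2 signal of 10 genes in the 5 adult regions, 1 point per array (4 per region) with a bar at the mean; these genes were picked from those the text names, after their values were seen. DG stands apart for GRP, STXBP6 and NPY1R, EC for CUX2 and SLC17A6, while MEIS2 and ETV1 are above DG and CA3 in EC, subiculum and CA1, and 1 CA3 array is far above the others for TTR.

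Most called markers of inhibitory neurons were lower in DG. Of 22 measured, 8 were called lower and 1 higher; without animal 3, 5 were called lower. ERBB4, a neuregulin receptor of interneurons, was at 8.19, 7.74, 7.63 and 7.40 in DG and 8.95, 9.02, 9.01 and 9.14 in EC. GAD2, one of the GABA-synthesizing enzymes, was at 7.95, 7.46, 7.65 and 7.54 against 8.69, 8.37, 8.78 and 8.56. Both separated the regions, and the peptide gene VIP (-0.79), the homeobox gene LHX6 (-0.54) and SST, the somatostatin gene (-0.46), lay in the same direction. PVALB, the gene of parvalbumin, was the 1 member called higher, at 6.46 to 7.08 in DG and 6.17 to 6.45 in EC. With the GAPDH covariate 4 members were called, all lower, and neither SST (adjusted p = 0.0594) nor PVALB (adjusted p = 0.0645) was among them.

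Glial lists did not move as one. Astrocyte genes were called in both directions, 6 of 19 higher and 7 lower in DG (4 lower without animal 3 or with the GAPDH covariate), and the list's mean level was 9.06 to 9.30 in DG and 9.18 to 9.27 in EC. GFAP, the intermediate filament of astrocytes, measured 11.01, 11.46, 11.56 and 11.15 in DG and 10.43, 10.06, 10.27 and 10.05 in EC, and S100B, a calcium-binding protein, was higher by 1.11. In the other direction stood ETNPPL, a phospholipid-metabolism enzyme (7.21 to 7.91 in DG, 8.64 to 9.13 in EC) and the water channel AQP4 (-0.87). The glutamate transporters SLC1A2 (-0.49) and SLC1A3 (-0.66) were also lower in DG. Genes known as astrocyte markers thus stood on both sides of the comparison.

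Oligodendrocyte precursor markers were called lower in DG for 4 of 14, and the other 10 were not called. PDGFRA, the growth factor receptor that marks these cells, measured 8.47, 8.32, 8.49 and 7.98 in DG and 9.66, 10.09, 10.15 and 9.94 in EC, and LHFPL3 was lower by 1.46 and SOX6 by 1.03. The groups did not overlap for these 3 genes on the probe sets used. The other 3 PDGFRA probe sets, at lower signal, differed by -0.11 to 0.05. Of 8 SOX6 probe sets 2 were called lower, and the 6 not called differed by -0.19 to 0.24. OLIG1 (-0.02), CSPG4 (-0.12) and OLIG2 (-0.26) were not called. Of 25 myelin genes 7 were called higher and 2 lower in DG (4 higher without animal 3, 3 with the GAPDH covariate). QDPR, which regenerates tetrahydrobiopterin, was higher by 0.65, MAL, a myelin proteolipid, by 0.50 and CNP, a myelin phosphodiesterase, by 0.45. MBP, which codes for myelin basic protein, differed by 0.03.

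The lists of cells that dissection could carry along were read beside these. Meningeal and fibroblast genes were called lower in DG for 8 of 12, and the other 4 were not called, with a list mean of 5.73 to 5.92 in DG and 6.36 to 6.73 in EC. DCN, decorin of the extracellular matrix, measured 7.47, 7.86, 7.28 and 7.10 in DG and 8.91, 8.50, 9.37 and 8.56 in EC, and OGN (-1.34), COL3A1 (-1.31) and FMOD (-0.79) were lower too. All 4 of these matrix genes separated the regions on their brightest probe sets, COL3A1 with 1 EC array at 7.35 and 1 at 6.25 above 2 at 5.67. Choroid plexus and ependymal genes were called higher in DG for 3 of 12: TTR, the thyroid hormone carrier transthyretin (1.50), FOLR1, a folate receptor (1.16), and AQP1, a water channel (0.31), whose call was lost without any 1 animal. TTR measured 6.95, 7.39, 7.82 and 6.80 in DG and 5.53, 5.71, 6.06 and 5.67 in EC. KCNJ13, a potassium channel of choroid plexus, was lower in DG at 4.58 against 5.04, and FOXJ1 (-0.19), OTX2 (0.11), CLIC6 (-0.07) and KL (-0.14) were not called. Of 16 endothelial and pericyte genes TEK was called higher and RGS5 and FLT1 lower, 18.8% of the list against 25.2% of all genes. No call of these 3 held with the mean of probe sets. TEK was not called without animal 3 either. Of 15 microglial genes 2 were called lower, 13.3% of the list against 11.3% of all genes. P2RY12, a purine receptor of microglia, was lower in DG by 0.79, and the pericyte gene RGS5 by 0.80. The part of meningeal or choroid tissue in any other difference was not tested.

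Receptors for glutamate were mostly lower in DG where called: 8 of 22 lower and 2 higher. GRIA2, the AMPA receptor subunit that sets calcium permeability, measured 10.65, 9.56, 10.05 and 9.66 in DG and 11.16, 11.04, 11.34 and 11.10 in EC, and GRIA3 was lower by 1.27, with 1 EC array of 9.09 inside the DG range. GRIA1, another AMPA subunit, was higher in DG at 8.36 to 8.81 against 7.72 to 8.14. Thus 3 subunits of one receptor differed between the regions, 1 of them in the opposite direction, although GRIA1 was not called with the GAPDH covariate (adjusted p = 0.0539). GRM5, a metabotropic receptor, was lower in DG by 1.37, GRIN3A, an NMDA receptor subunit, by 1.21 and the kainate subunit GRIK3 by 0.79. The main NMDA subunits GRIN1 (-0.17) and GRIN2A (0.07) were not called, while GRIN2B was lower by 0.63.

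Of 11 GABA receptor genes 6 were called lower in DG and 3 higher. Without animal 3 only 2 of the 11 were called, both lower, and without animal 2, 3 were called lower. GABRB2 measured 9.61, 8.96, 9.25 and 8.73 in DG and 10.25, 9.84, 10.09 and 10.28 in EC (difference -0.98 ± 0.13, adjusted p = 0.000123). GABRG1 was lower by 0.74, without overlap. GABRD, whose delta subunit forms extrasynaptic receptors on granule cells, was at 6.54 in DG and 6.38 in EC and not called. For monoamines and acetylcholine, 6 of 24 receptor genes were called higher and 6 lower. These counts were 3 and 2 without animal 3, 3 were lower without animal 2, and 3 were higher without animal 4. ADRA1A, an adrenergic receptor, measured 8.51, 8.07, 8.25 and 7.84 in DG and 5.99, 6.63, 6.85 and 6.87 in EC. Its 4 further probe sets, at lower signal, differed by -0.18 to 0.12 and were not called. HTR2C, a serotonin receptor, measured 5.20, 5.08, 5.13 and 4.31 in DG and 6.18, 6.45, 6.78 and 7.05 in EC. Adrenergic and serotonin receptors each had members on both sides: ADRB1 was lower in DG by 1.34 and HTR1E higher by 0.69.

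The neuropeptide genes called higher were GRP, PENK (enkephalin, 0.75) and NMB, 3 of 22. That is 13.6% of the list, near the 14% of all genes. Called lower were VIP, SST, PNOC (-0.38), SCG2 (-0.38) and CRH (-0.35), 5 of 22, or 22.7% against 11.3% of all genes. Without animal 3, 2 were called lower. PENK overlapped between regions, with DG at 7.47, 8.47, 7.96 and 7.85 and EC at 7.51, 6.64, 7.13 and 7.45, and was not called without animal 2 or animal 3. Of 26 neuropeptide receptor genes 5 were higher and 5 lower (3 and 3 without animal 3). NPY1R, a receptor for neuropeptide Y, measured 7.28, 7.12, 7.35 and 6.42 in DG and 5.11, 5.61, 5.29 and 5.45 in EC, a 3.20-fold difference without overlap. ADCYAP1R1, the receptor of the peptide PACAP, was higher in DG by 0.70, whereas MCHR1, the receptor of melanin-concentrating hormone, was lower by 1.14 and OPRK1, the kappa opioid receptor, by 0.85. GRPR, the receptor for gastrin-releasing peptide, was at 6.35 to 6.58 in DG and 6.02 to 6.26 in EC, a difference of 0.34 beside the 3.07 of its ligand, and was not called without animal 2 or animal 3.

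Channel genes were called on both sides. Potassium channel genes were higher in DG for 10 of 34 and lower for 6; without animal 2 these counts were 4 and 2, without animal 3, 6 and 2, and with the GAPDH covariate 5 and 1. KCNIP2, an accessory protein of Kv4 channels, measured 8.95, 9.16, 9.24 and 9.37 in DG and 7.95, 8.38, 8.13 and 8.16 in EC. KCNJ6, an inward rectifier opened by G proteins, was higher by 0.84, also without overlap. KCNIP2 and the Kv4 auxiliary gene DPP10 (-2.22) thus differed in opposite directions, and the Kv4 pore gene KCND2 was higher in DG by 0.41. Of 23 sodium and calcium channel genes 4 were higher and 7 lower (4 lower without animal 3). CACNA1I, a T-type calcium channel, was at 7.37, 7.53, 7.48 and 7.83 in DG and 6.63, 6.72, 6.77 and 6.63 in EC, CACNG8 was higher by 0.56, CACNA2D2, an accessory calcium channel subunit, was lower by 0.87 and SCN1A by 0.57.

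Adhesion genes leaned to one side. Of 36 cadherin and synaptic adhesion genes, 20 were called lower in DG (15 to 20 when any 1 animal was left out) and 1 higher, and the list's median difference was -0.35. PCDH7, a protocadherin, measured 8.68, 8.38, 8.46 and 8.28 in DG and 9.91, 10.06, 10.05 and 10.25 in EC. CNTNAP2, a neurexin-family protein of the axon, measured 8.31, 8.72, 8.15 and 8.81 against 9.69, 10.24, 9.95 and 10.15. Both were at least 2-fold lower with no overlap. Also at least 2-fold lower on average were LRRTM2, a postsynaptic organizer (-1.37), NEGR1 (-1.34), NRXN3, a presynaptic neurexin (-1.26), and NLGN1, a postsynaptic neuroligin (-1.16). FLRT3, a membrane protein that binds latrophilins, was the single member higher in DG (0.99).

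Of 39 axon guidance genes 15 were called higher in DG and 12 lower. EFNB3, the ligand ephrin-B3, measured 10.29, 10.31, 10.61 and 10.56 in DG and 9.38, 9.22, 9.44 and 9.02 in EC, opposite to EFNB2. PLXNC1, a semaphorin receptor, measured 7.91, 7.53, 7.27 and 7.44 in DG and 9.59, 9.34, 9.76 and 9.46 in EC. Ligands and receptors of one family stood on both sides: EPHA4 was higher in DG by 0.96 and EPHA5 lower by 1.09, SLIT1 was higher by 0.63 and SLIT2 lower by 0.83. NTN4, a netrin, was lower by 1.07. With the mean of each gene's probe sets, 9 members were called higher.

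**Figure D4:**
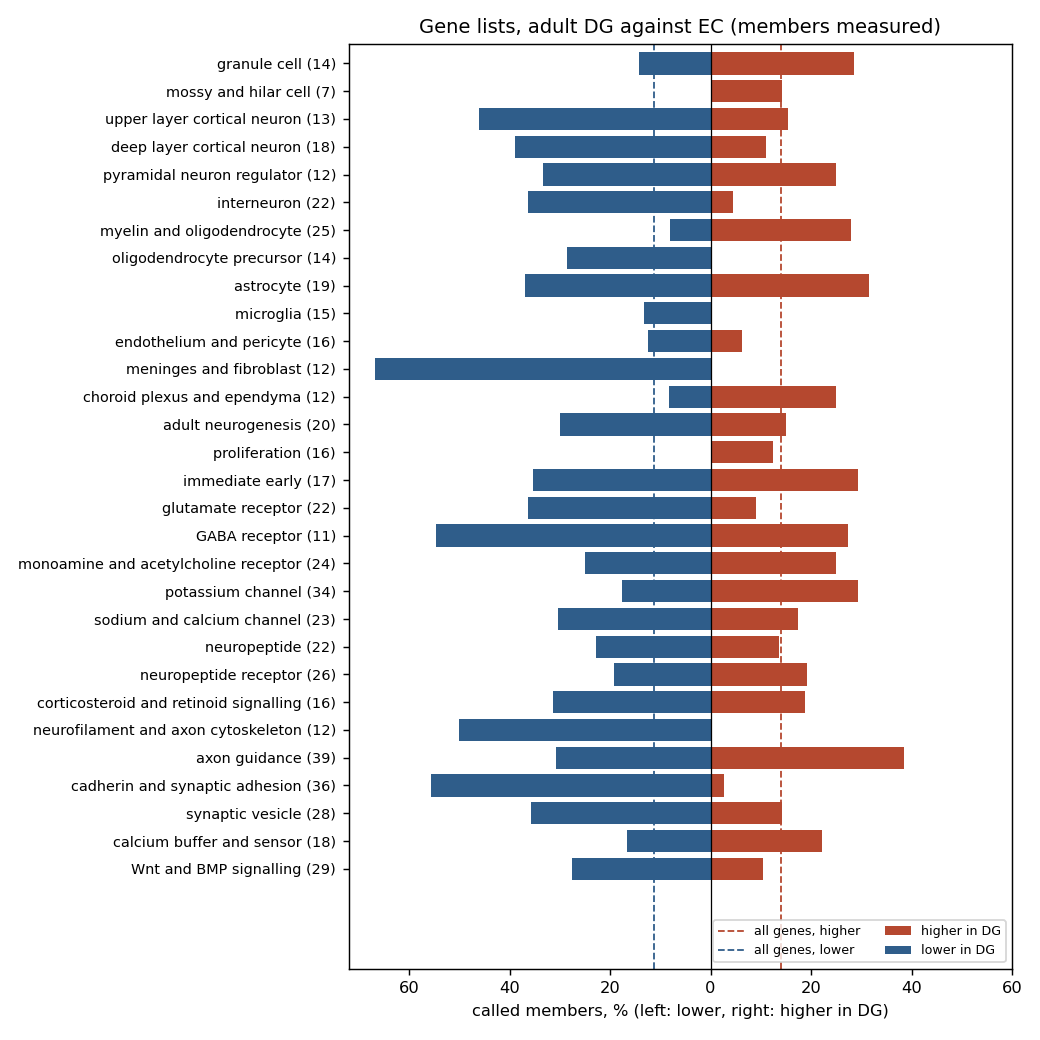
Share of the measured members of 30 gene lists that were called higher (red, right) or lower (blue, left) in adult DG than in EC, in percent, with the number of members measured in brackets; dashed lines mark the shares over all genes, 14% and 11.3%. The meningeal (8 of 12), adhesion (20 of 36) and GABA receptor (6 of 11) lists reach farthest to the left, and the axon guidance list (15 of 39) farthest to the right.

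The genes of both vesicular glutamate transporters of the cortex differed in opposite directions. SLC17A6, which encodes VGLUT2, measured 6.74, 6.92, 6.96 and 5.82 in DG and 8.37, 8.87, 8.69 and 8.76 in EC. SLC17A7, which encodes VGLUT1, measured 11.63, 11.33, 11.51 and 11.67 in DG and 10.74, 10.55, 10.64 and 10.62 in EC. The regions did not overlap for either gene, with differences of -2.06 ± 0.17 and 0.90 ± 0.10. In the whole list 10 of 28 were lower (6 without animal 3, 5 with the GAPDH covariate) and 4 higher, among them RAB3C (-1.15), the calcium sensor gene SYT1 (-0.54), SNAP25 (-0.32) and, on the higher side, CPLX2, a complexin (0.79). Genes of the axonal and dendritic skeleton were called lower for 6 of 12 (3 with the GAPDH covariate), and the other 6 were not called: GAP43, the growth-cone protein, was at 10.43 to 10.84 in DG and 11.79 to 12.17 in EC, and STMN2 was lower by 0.64, while the neurofilament gene NEFL differed by 0.03. Of 18 calcium buffer and sensor genes 4 were higher (7 without animal 1) and 3 lower. HPCA, hippocalcin, measured 8.79, 9.25, 8.21 and 9.29 in DG and 7.22, 7.67, 7.23 and 7.79 in EC, VSNL1 was lower by 0.85 and RCAN2, a calcineurin regulator, by 1.03.

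Steroid receptors also differed in opposite directions. NR3C2, the mineralocorticoid receptor, measured 9.59, 9.54, 9.57 and 9.26 in DG and 7.98, 8.41, 8.13 and 8.32 in EC (difference 1.28 ± 0.12, adjusted p = 4.34e-06). NR3C1, the glucocorticoid receptor, measured 8.48, 8.41, 8.52 and 7.74 in DG and 9.15, 9.17, 9.42 and 9.50 in EC (difference -1.02 ± 0.15, adjusted p = 0.000230). The groups did not overlap for either gene, but 2 of the 4 further NR3C1 probe sets pointed the other way and the mean over its probe sets was not called (-0.21). FKBP5, a chaperone that steroids induce, was higher in DG by 0.55, and the retinoic acid-degrading enzyme gene CYP26B1 was lower by 1.41 on 1 of its 2 probe sets, beside the orphan nuclear receptors RORA (-1.52) and RORB (-0.98). The whole list had 3 of 16 higher and 5 lower.

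Wnt and BMP pathway genes had 3 of 29 higher and 8 lower (5 lower without animal 3 or with the GAPDH covariate, and 6 higher without animal 4). FZD7, a Wnt receptor, measured 9.22, 8.55, 8.44 and 8.57 in DG and 7.54, 7.32, 7.24 and 7.39 in EC, and the Wnt pathway genes FRZB (1.12), with 1 DG array inside the EC range, and DKK3 (0.58) were higher too. Immediate early genes, which neurons switch on with activity, were called for 5 of 17 on the higher and 6 on the lower side, 2 and 3 without animal 3 and also with the GAPDH covariate. HOMER1, which scaffolds metabotropic receptors, measured 7.77, 7.45, 7.33 and 7.24 in DG and 8.74, 8.60, 8.65 and 8.71 in EC, and EGR1 was lower by 0.77, while FOSL2 (0.57, overlapping) and BDNF (0.46) were higher. BDNF, a neurotrophin, had overlapping groups and was not called without animal 3 or without the pairing (adjusted p = 0.0514).

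Markers of neurogenesis are not specific to it, since several are also expressed by astrocytes or by immature neurons elsewhere. Of 20 measured, 6 were called lower in adult DG and 3 higher. SOX11, a transcription factor of immature neurons, measured 5.74, 5.50, 5.65 and 5.39 in DG and 7.06, 7.29, 6.93 and 7.04 in EC. DCX, doublecortin of migrating neurons, measured 7.29, 6.89, 6.95 and 6.80 in DG and 7.63, 7.50, 7.80 and 7.83 in EC. Both were lower in adult DG without overlap, as was SOX4 on its brightest probe set (-0.74), although of 6 SOX4 probe sets fitted alone 3 were lower, 1 higher and 2 not called. FABP7, a fatty acid-binding protein of radial glia and astrocytes, was higher at 9.47 to 9.95 in DG against 7.89 to 8.57. Of 16 proliferation genes MCM2 (0.58) and PCNA (0.63) were called higher, 12.5% of the list against 14% of all genes. MKI67 (-0.08) and TOP2A (-0.07), both near the low end of the scale, were not called.

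The same contrast was read in 12 younger monkeys, none of which is in the adult comparison. DG minus EC was called for 1953 genes in newborns (9.88% of all), 3823 at 6 months (19.3%) and 4408 at 1 year (22.3%), in a fit of all 16 pairs with one spread. In that fit 4874 genes were called in adults, whereas the 4992 adult calls come from the 4 adult pairs alone. The GAPDH difference was 0.89 to 1.43 in DG of these 12 animals and 1.25 to 1.64 in 11 of their EC arrays, with the EC array of animal 8, a 1-year-old, at 2.79. It was higher in EC than in DG in all 12 pairs, and its part in the counts by age was not tested. Without animal 13 the newborn count was 1124, and without animal 11 that at 6 months was 2443. Of the 4992 adult calls, 86.8% had the same sign in newborns, 91.7% at 6 months and 94.9% at 1 year, against 68.6%, 70.3% and 73.7% of all genes. Called the same way were 1308, 2545 and 2971 of them, which is 26.2%, 51.0% and 59.5% of the adult calls and 67.0%, 66.6% and 67.4% of the calls at each age. Across genes, which are not independent replicates, the adult difference correlated with that of newborns at r = 0.67, of 6-month-olds at 0.78 and of 1-year-olds at 0.82. Of the 360 adult calls of at least 2-fold, 347 kept their sign at all 3 younger ages and 237 were called the same way at all of them. For MEIS2 the difference was -3.58, -4.27 and -3.82 at the 3 younger ages and for GRP 2.30, 3.42 and 3.36.

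The granule cell and neurogenesis lists were also counted at the younger ages. In newborns 7 of 14 granule cell markers were called higher in DG and the other 7 were not called, where 5.10% of all genes were higher and 4.78% lower. At 6 months 7 were called higher, against 9.97% of all genes, and at 1 year 7, against 12.2%. CALB1 differed by 0.90, 2.26, 1.49 and 1.74 in the 4 newborns, a mean of 1.60, and by 0.41 in adults; the change between both ages was not called (-1.19, adjusted p = 0.107). Of 20 neurogenesis markers, 8 were called higher in newborn DG and the other 12 were not called.

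The change of the difference from newborns to adults was called for 255 genes (1.29%), 138 toward DG and 117 toward EC. This contrast shares its adult arrays with the adult comparison, so both values are given side by side and neither supports the other. Its count ran from 101 without animal 15 to 497 without animal 8, whose EC array had the GAPDH difference of 2.79, and was 119, 134 and 110 without adults 2, 3 and 4 and 113 without animal 14. ADGRG2 differed by 0.81, 1.27, 1.63 and 1.47 in newborns and by 3.53, 2.96, 3.02 and 2.63 in adults. MAB21L2 differed by -0.12, 0.15, 0.12 and 0.06 in newborns and by 2.24, 2.16, 2.06 and 1.86 in adults, where its DG level had gone from 4.44 to 4.68 in newborns to 6.46 to 6.98. PCDH18, a protocadherin, had a difference of -0.31 in newborns and 1.49 in adults, and LRRC17 one of -1.38 and 0.41, the latter not called in adults.

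The 4 genes named for the largest change toward EC were higher in newborn DG than in newborn EC and not in adults. ST18, a zinc-finger transcription factor, measured 7.46 to 8.52 in newborn DG and 4.93 to 5.91 in newborn EC, a difference of 2.62, against -0.06 in adults. Its adult levels were 6.92 to 7.20 in DG and 6.88 to 7.34 in EC, so that the EC arrays of adults lay above, and the DG arrays below, those of newborns. NHLH2, a basic helix-loop-helix factor, measured 6.60 to 8.0 in newborn DG and 4.84 to 5.16 in newborn EC, and 4.58 to 4.84 in adult DG. Its adult means, 4.66 in DG and 4.73 in EC, were both near the low end of the scale. SOX11 differed by 0.15, 0.98, 0.41 and 0.31 in newborns and by -1.31, -1.79, -1.28 and -1.64 in adults, and LYPD1 by 0.80 and -0.88 on average. The differences of SOX11 and LYPD1 had opposite signs in the 4 newborns and the 4 adults, and the change was called for both (adjusted p = 0.000101).

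Signs were opposite in newborns and adults, with both ages called, for 25 genes. DCX (0.58 in newborns, -0.71 in adults), SOX4 (0.75, -0.74), HMGB2, a chromatin protein (0.82, -0.48), and EZH2, a histone methyltransferase (0.73, -0.33), were higher in newborn DG and lower in adult DG. PENK (-0.81, 0.75), DTNBP1, dysbindin (-0.64, 0.48), MGLL, monoacylglycerol lipase (-0.60, 0.49), FOSL2 (-0.53, 0.57) and BACE1, beta-secretase (-0.50, 0.42), had the opposite order. EZH2 was not called in adults without animal 2 or animal 3, nor was PENK. In adults EZH2 averaged 4.23 in DG and 4.56 in EC, both near the low end of the scale.

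**Figure D5:**
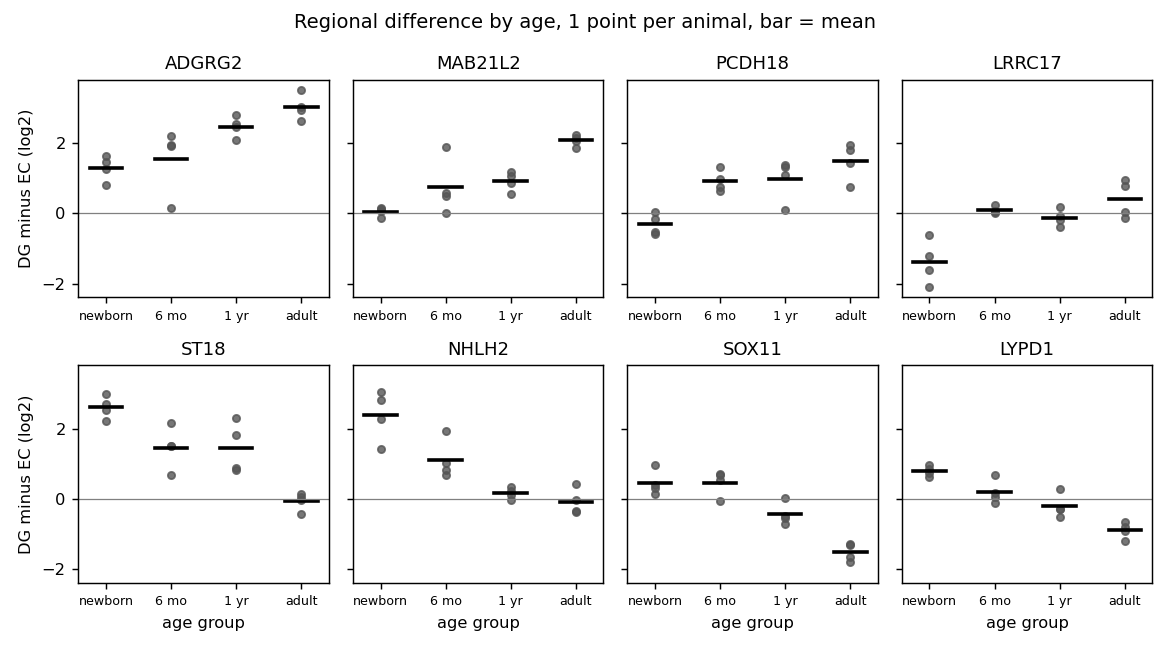
DG minus EC (log2) at 4 ages for the 8 genes with the largest change from newborns to adults, 1 point per monkey (4 per age) and a bar at the mean; the line at 0 marks equal levels. The adult points of ADGRG2, MAB21L2, PCDH18 and LRRC17 lie above those of the newborns. Those of ST18, NHLH2, SOX11 and LYPD1 lie below them. The genes were chosen among those without overlap between newborns and adults, so this gap was required by the choice.

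Levels in the other adult regions placed both groups. For 73 of the 92 genes at least 2-fold higher in DG (79.3%), the mean in subiculum lay nearer to EC than to DG, and so it did for 181 of the 268 lower genes (67.5%). In CA3 these counts were 44 (47.8%) and 72 (26.9%), and in CA1 56 (60.9%) and 129 (48.1%). The GAPDH difference was 2.50 to 2.99 in adult CA3, 2.65 to 3.19 in CA1 and up to 2.98 in 1 subiculum array, against 1.43 at most in DG, and its part in these counts was not tested; without that subiculum array 76 and 180 genes lay nearer to EC. GRP averaged 6.73 in subiculum, 6.96 in CA3 and 5.63 in CA1, beside 9.79 in DG and 6.72 in EC, whereas ZBTB20 averaged 11.09 in CA3 and 10.80 in CA1, beside 10.12 in DG. MEIS2 averaged 8.18 in subiculum, 6.75 in CA3 and 8.86 in CA1. CUX2 was near 6 in every region but EC (5.99 in subiculum, 6.05 in CA3 and 6.04 in CA1), and SLC17A6 stood at 6.41, 5.87 and 5.23 there. RXFP1 averaged 8.26 in subiculum and 6.45 in EC, and HTR2C 8.45 and 6.61.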

How the data were processed

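All 80 arrays (Affymetrix HG-U133 Plus 2.0) were used as the authors deposited them, as log2 signals in the series' value table; no source used here gives the summarisation and normalisation behind them. The values were quantile normalized over the 80 arrays with limma 3.58.1 in R 4.3.3. Probe sets were named through GEO's platform annotation: 41091 have 1 symbol, 1801 several and 11721 none, and 62 are controls; 53 symbols were updated through macaque RefSeq synonyms. The probe set with the highest mean over all arrays stood for each of 19774 genes, so a gene's other probe sets can differ.

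Arrays were paired by title number. The study took every region from each monkey and the numbers run over 16 monkeys, from which it was taken that a number is 1 animal. Same-numbered adult arrays had correlated deviations of 0.03 to 0.17 (mean 0.08), against a mean of -0.03 for unlike numbers. The EC array of the same number correlated best for 2 of the 4 adult DG arrays, and for 1 of the 4 in newborns. At 1 year the mean for like numbers was 0.01. These values are too weak to settle that a number is 1 animal. limma (lmFit, eBayes, two-sided) was run on the 4 pair differences; younger ages and the adult minus newborn contrast came from 1 fit of the 16 differences. The Benjamini-Hochberg adjustment ran over all genes, with a threshold of 0.05. The precision rests on 4 arrays a group.

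Named genes were the 14 largest differences each way among called genes with 1 sign in 4 pairs and the higher mean above the median. For adult minus newborn they were the 4 largest changes each way among called genes with a group mean above the median. The adult pair differences of such a gene also had to lie all above or all below those of newborns. Up to 4 members of each list were named by p, and uncharacterised loci were passed over. Of the 640 symbols in 30 lists, 592 were measured; other genes named were chosen after their values were seen. Members and lists were chosen with earlier results of these data known. Alternatives were the deposited values, median centring, a filter on low values, the mean of probe sets, no pairing, 1 shared spread, the GAPDH difference as covariate, leaving out each animal and, added after seeing the data, every probe set fitted alone. The scripts were tested on simulated data. Figures were drawn with matplotlib 3.10.9.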

Additional observations from a re-analysis of the deposited data

Results flagged for a closer look

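For 164 genes picked for naming, 328 groups of 4 adult arrays were examined. In 26 of these groups 1 array was set apart from the other 3 by a rule. Some of the gaps were small, as for SCN1A in EC, with 5.56 in animal 2 and 5.64 to 5.65 in the others. The rule used marks about a share of 0.05 of groups by chance. In DG of animal 1, GRP was low at 9.50, and FZD7 (9.22), VSNL1 (12.11), ANK3 (11.17) and RELN (8.68) were high. In DG of animal 4, CAMK2D (9.36), FRZB (7.96), RCAN2 (5.97), NR3C2 (9.26), HTR2C (4.31) and NR3C1 (7.74) were low and NHLH2 (4.84) high. In DG of animal 3, GRIN3A was high at 7.68 and FMOD low at 6.44. In EC of animal 1, ZBTB20 (8.05), SYTL2 (8.18) and MCHR1 (6.47) were low and CACNG8 (7.50) high. In EC of animal 2, CALB2 (7.42) and SCN1A (5.56) were low and KCNV1 (5.57) high. In EC of animal 3, DKK3 (10.62) was low and PVALB (6.45) high, and in EC of animal 4, GABRA3 (5.55), FABP7 (7.89) and LRRTM2 (8.35) were low. GABRA3, a GABA receptor subunit, was not called without animal 3, and ANK3, an axonal scaffold protein, also lost its call without animal 3.

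For 29 of these 164 genes the DG minus EC difference itself changed between newborns and adults (limma on the 16 pair differences, adjusted p under 0.05 over all genes). Other genes in the text, such as HMGB2, MGLL and BACE1, were outside the 164, and their change was called too. It was more positive in adults for MAB21L2 (by 2.03), PCDH18 (1.81), LRRC17 (1.79), ADGRG2 (1.74), PENK (1.57), KCNJ9 (1.12), DTNBP1 (1.12), FOSL2 (1.10), EFNB3 (0.97), FZD7 (0.80), CACNA1I (0.79), GRP (0.77), TLE4 (0.67) and HTR1E (0.61). It was more negative for ST18 (-2.68), NHLH2 (-2.48), SOX11 (-1.97), CDC42BPA (-1.70), LYPD1 (-1.68), SOX4 (-1.49), TOX3 (-1.46), SERPINI1 (-1.42), SYTL2 (-1.33), DCX (-1.29), PHACTR2 (-1.20), SOX6 (-1.15), EZH2 (-1.06), CAMK2D (-0.81) and CNTNAP2 (-0.71). MAB21L2, PCDH18, LRRC17, ADGRG2, ST18, NHLH2, SOX11 and LYPD1 were picked by a rule that required this change to be called. Their place among the 29 therefore follows from the choice. Several genes of the list were chosen for their adult difference, and both values use the same adult arrays. Over all genes the change was called for 1.29%. Because of these choices the 29 cannot be tested against that share.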

How the results depend on the processing

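The count of adult calls, 4992, was 4662 on the deposited values, 4520 with median centring, 4366 with a filter on low values and 4101 with the mean of probe sets. With the GAPDH difference as a covariate, a fit with fewer residual degrees of freedom, it was 2290. Without the replicate block (no pairing by number) it was 4753, of which 4571 were shared with the paired fit, and the adult minus newborn count was 174 in place of 255. That count was 169 with the mean of all probe sets. Leaving out 1 animal at a time gave 2683 to 5477 adult calls, 1124 to 2516 in newborns, 2443 to 4426 at 6 months, 3071 to 4908 at 1 year and 101 to 497 for adult minus newborn. None of the 164 genes picked for naming changed its sign where it was called. Other genes in the text, such as SLC1A2, NLGN1, EPHA4 and HMGB2, were not followed gene by gene through these settings. The cause of these shifts was not tested. Of the 164 named values, 17 lost their call with the covariate, 15 without animal 3 and 10 without animal 2. Of the 60 list counts, 24 moved by 1.5 times or more without animal 3, 20 with the covariate and 12 with the mean of probe sets. The 17 genes were AQP1, GLIS3, NR4A3, GPR34, TF, MAP2, SST, NKX2-2, KCNV1, LCT, DSP, GRPR, PENK, GRIA1, PVALB, KCNJ9 and EZH2. Dim probe sets limit what can be said of genes near the low end of the scale.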
